A study of Mus musculus with 12 samples.

Results

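The enzymes described here make serine, asparagine, proline, cysteine and alanine or pass the serine carbon into the mitochondrial folate cycle. They are the products of 10 genes, Asns, Phgdh, Psat1, Psph, Shmt2, Mthfd2, Aldh18a1, Pycr1, Cth and Gpt2, taken by symbol from the 34513 mouse genes of the deposited count table, and all 10 were among the 18338 genes that passed the filter on low counts. RNA was sequenced from 3 cultured mouse lines, Melan-A, a non-tumorigenic melanocyte line, B16F0, a tumorigenic melanoma line, and B16F10, a metastatic melanoma line from the same B16 family. Each line was left untreated (control) or exposed to SX-682, an antagonist of the chemokine receptors CXCR1 and CXCR2, which gives 6 groups of 2 libraries. The comparisons address what SX-682 does to transcription in these cells without the stroma and immune cells of a tumor. The labels do not say whether 2 libraries of a group came from separate cultures, so p-values measure the spread between libraries, which may be technical, and neither the dose of SX-682 nor its duration is given for these cultures in the sources used here.

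Phgdh, Psat1 and Psph catalyze the consecutive steps that turn a glycolytic intermediate into serine. The mitochondrial enzymes Shmt2 and Mthfd2 then take a carbon unit from serine for folate-dependent reactions such as nucleotide synthesis. Asns makes asparagine from aspartate and glutamine, Aldh18a1 and Pycr1 make proline from glutamate, Cth releases cysteine in transsulfuration, and Gpt2 exchanges amino groups between alanine and glutamate in mitochondria. Many of these genes are known targets of Atf4, a transcription factor whose translation increases when amino acids are scarce or protein folding is stressed, and proliferating tumor cells often draw on serine and one-carbon synthesis.

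The 12 libraries held 48876982 to 85322092 counts on genes. Levels are in CPM, counts scaled to the library total after TMM correction, or in RPKM, the same value per kilobase of the gene length in the deposited table, which allows levels of different genes to be compared. Replicates were close, with a biological coefficient of variation of 2.78% in the fit, so small differences passed the test. With 2 libraries against 2, an exact permutation test cannot give a two-sided p below 0.333, and all p-values here therefore come from edgeR's quasi-likelihood test across all genes, adjusted by Benjamini-Hochberg and called under 0.05. Each of the 7 melanocyte markers examined was above 3 counts in every library, but their summed level was 1344 to 1374 CPM in the Melan-A libraries without treatment and 18579.5 to 24470.5 CPM in the untreated B16 libraries. In Melan-A, Tyr, which encodes the enzyme of the first step of melanin synthesis, was at 0.892 and 0.760 CPM without treatment, and the 5 fibroblast markers summed to 110.2 and 111 CPM there and to between 7.19 and 8.32 CPM in untreated B16 libraries. These differences move with the line, and their part in the differences between lines was not tested. In culture-wide RNA, fewer cells of a type and less RNA per cell cannot be told apart.

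SX-682 raised 9 of the 10 genes in Melan-A and all 10 in both B16 lines, and lowered none in any line. The 10 genes were chosen with earlier results of these data known, so these counts describe them and are no independent test. Of all genes tested, 23.4% were raised and 24.7% lowered in Melan-A, 25.1% raised and 25.0% lowered in B16F0, and 25.5% raised and 25.3% lowered in B16F10. The median log2 fold change of the 10 genes was 0.58 for Melan-A, 0.93 for B16F0 and 1.55 for B16F10. The median over all genes was 0 in each line. The filter on low counts ran over all 6 groups together, so the values for all genes include genes with few counts in a given line. All but Cth, 9 genes, were raised in all 3 lines, as were 11.3% of all genes, while 11.7% of all genes were lowered in all 3. Apart from Cth in Melan-A, no SX-682 library of a line overlapped a control library of that line for any of the 10 genes. The share of all genes separated in this way was not computed, so the separation cannot be read as particular to these genes. Other measures moved with treatment too, and their part in these changes was not tested. The summed melanocyte markers were 15770 to 15958 CPM in B16F0 and 14947 to 15188 CPM in B16F10 with SX-682, below 18579.5 to 18664 CPM and 24441.6 to 24470.5 CPM without it, and 1346 to 1355 CPM in treated Melan-A. In Melan-A the fibroblast markers summed to 89.1 and 90.03 CPM with SX-682, and the 5 leukocyte markers went from 16.2 CPM in both controls to 44.1 and 45.4 CPM, nearly all of it Cd68, while Ptprc, which marks leukocytes in general, had group means of at most 0.00846 RPKM in all groups. In B16F0 the fibroblast markers went from 8.25 and 8.32 CPM to 10.7 CPM in both treated libraries, and the leukocyte markers from between 10.1 and 11.9 CPM to between 13.8 and 15.8 CPM. In B16F10 the fibroblast sums overlapped, at 7.19 to 8.29 CPM without and 6.99 to 7.47 CPM with SX-682, and the leukocyte sums were 25.4 to 26.6 CPM and 24.0 to 25.03 CPM. The 4 keratinocyte markers summed to no more than 3.39 CPM in any library. Mitochondrial transcripts took 0.957% and 0.968% of counts in untreated Melan-A and 1.15% in both treated libraries, with 0.756% to 0.779% against 0.847% to 0.863% in B16F0 and 0.989% to 1.02% against 1.24% in B16F10.

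Together the 10 genes took 0.1246% and 0.1251% of all counts in untreated Melan-A and 0.197% and 0.196% with SX-682, 0.155% and 0.154% against 0.266% and 0.265% in B16F0, and 0.102% and 0.101% against 0.245% and 0.246% in B16F10.

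**Figure D1:**
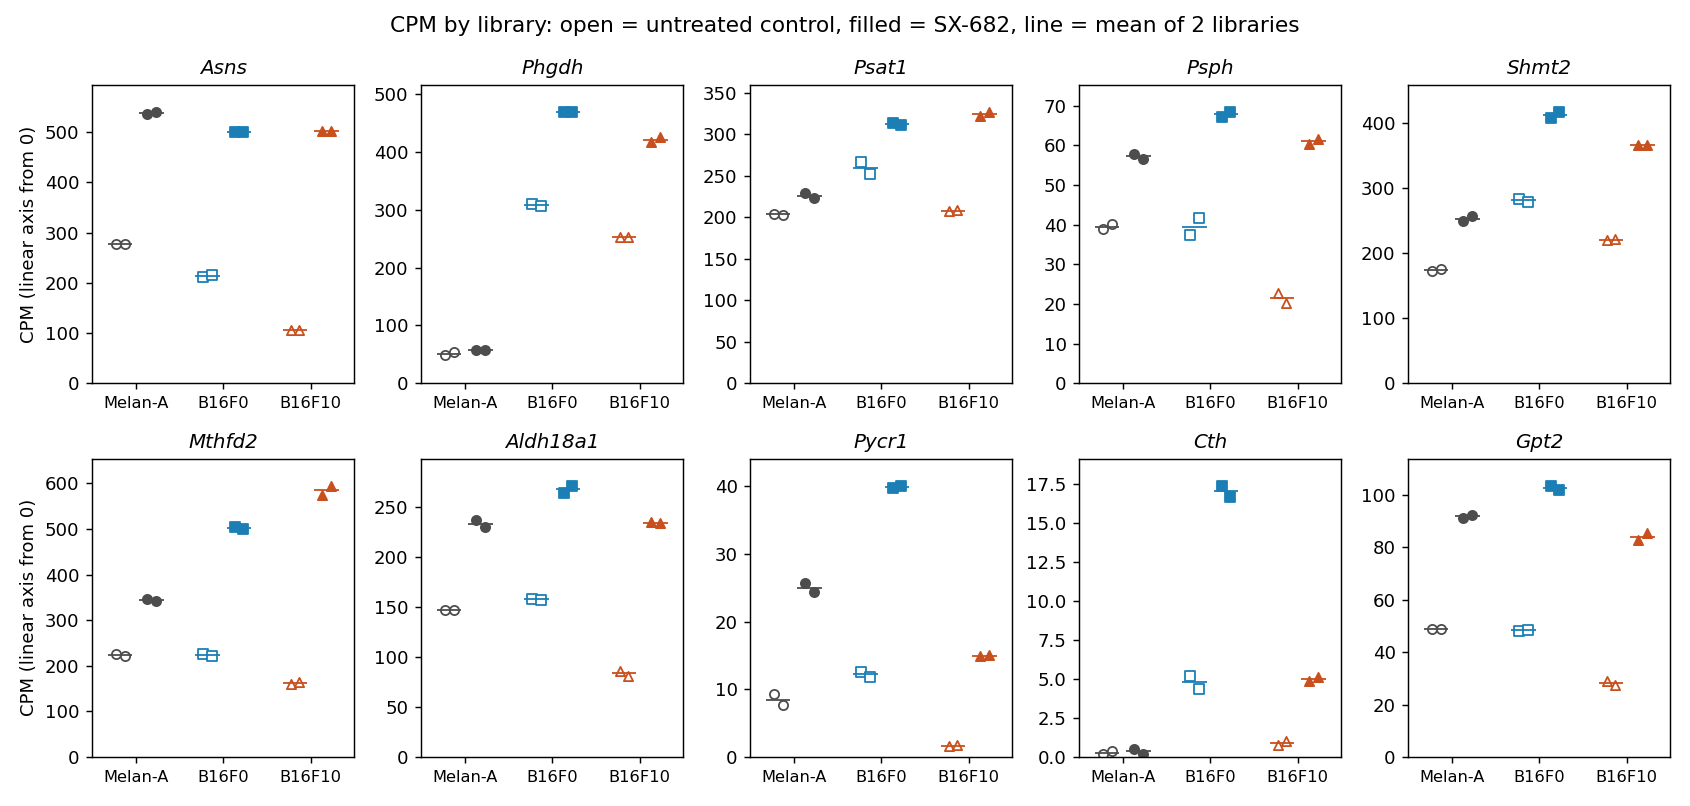
CPM of each of the 10 genes in each of the 12 libraries on linear axes that start at 0, with untreated control libraries as open symbols, SX-682 libraries as filled symbols and the mean of 2 libraries as a short line. Filled symbols lie above open symbols of the same line for every gene except Cth in Melan-A, and Asns sits between 499.6 and 540.1 CPM in all 6 SX-682 libraries.

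The promoters of the 10 genes were searched for the core of the C/EBP-ATF response element, TGATGNAA, on both strands, in the window from 250 bases before to 50 bases after the RefSeq gene start (GRCm38.p6). The RefSeq table gave windows for 9 of the 10 genes, all but Cth, with 2 for Psat1. The core was found in 2 of these 9 genes, Asns and Pycr1, against 4.51% of the 27025 genes with a window, and in 3.97% of all 32851 windows. The matched stretches are shown because these are the 2 promoters with a match, with the core in capitals and the gene's strand written 5′ to 3′.
Asns, chr6:7693208-7693237, minus strand: ccacaTGATGAAActtcccgcacgcgttac
Pycr1, chr11:120643818-120643877, minus strand: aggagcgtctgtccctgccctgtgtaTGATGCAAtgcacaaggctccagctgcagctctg
The Asns core began 23 bases before the RefSeq start and lay within the first exon of the longer GENCODE M21 model of the gene, and the Pycr1 core began 103 bases before its RefSeq start. A match describes the letters of the window and not the binding of a factor, and for the other 7 genes only these letters are absent from their windows.

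Asns, asparagine synthetase, converts aspartate to asparagine with glutamine as the nitrogen donor. The gene (ENSMUSG00000029752.12) lies on the minus strand of chromosome 6 from 7675169 to 7693254 (GRCm38), with 13 exonic blocks. It was at 277 and 278 CPM in untreated Melan-A and at 537 and 540.1 CPM with SX-682. B16F0 had 212 and 216 CPM without treatment and 499.6 and 501 CPM with SX-682. B16F10 had 107 and 106 CPM without treatment and 501 and 502 CPM with SX-682. Untreated levels thus stood in the order Melan-A, B16F0, B16F10 with no overlap between lines, whereas with SX-682 the 6 libraries lay within a narrow band. The log2 fold change was 0.96 ± 0.02 (SE) for Melan-A, 1.23 ± 0.02 for B16F0 and 2.24 ± 0.02 for B16F10, which is a 1.94-fold, a 2.34-fold and a 4.73-fold rise, and the highest of the 3 adjusted p-values was 3.35e-24 (edgeR). The rise in B16F10 exceeded that in Melan-A by 1.28 ± 0.03 on the log2 scale (adjusted p = 6.97e-23) and that in B16F0 by 1.01 ± 0.03 (adjusted p = 8.88e-20).

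With SX-682 the Asns level of B16F10 differed from that of B16F0 by 0.00 ± 0.02 on the log2 scale (95% interval -0.04 to 0.05, adjusted p = 0.901), where the untreated difference was -1.01 ± 0.02. Comparisons between lines among SX-682 libraries were added after the values had been seen. The highest line mean was 2.61 times the lowest in untreated libraries and 1.08 times in SX-682 libraries. Such narrowing was seen for 5 of the 10 genes, Asns, Psph, Aldh18a1, Pycr1 and Gpt2, and in 46.4% of the 10539 genes with a mean above 1 CPM in every group.

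Phgdh, phosphoglycerate dehydrogenase, opens the serine pathway and is often called its committed step. The gene (ENSMUSG00000053398.11) occupies the minus strand of chromosome 3 from 98313170 to 98339990. Melan-A had 48.6 and 53.3 CPM without treatment and 57.5 and 57.0 CPM with SX-682. In B16F0 the level went from 311 and 307 CPM to 469 and 468 CPM. In B16F10 it went from 254 and 252 CPM to 417 and 425 CPM. Phgdh was the serine enzyme that separated the lines most, with Melan-A far below both B16 lines in either condition. Untreated B16F0 exceeded untreated Melan-A 6.05-fold (log2 difference 2.60 ± 0.03, adjusted p = 5.95e-33) and B16F10 exceeded it 4.96-fold (2.31 ± 0.03, adjusted p = 1.3e-31). The log2 fold change with SX-682 was 0.17 ± 0.03 in Melan-A (adjusted p = 9.18e-05), 0.60 ± 0.03 in B16F0 (adjusted p = 2.82e-17) and 0.74 ± 0.03 in B16F10 (adjusted p = 2.32e-19). Near-identical copies could take some of its reads, since 18 other annotated genes, nearly all of them processed pseudogenes, share at least 90% identity over 20% or more of a Phgdh transcript. The 13 of them with a row in the count table had at most 192 counts in a library, where Phgdh had at least 4100. How reads that map to several places were counted is not given, so these counts cannot show whether Phgdh reads were lost or misplaced.

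Psat1, phosphoserine aminotransferase, carries out the second step of the pathway (ENSMUSG00000024640.9, chromosome 19, 15904678 to 15947337, minus strand). It rose from 204 and 203 CPM to 229 and 223 CPM in Melan-A, from 266 and 252 CPM to 314 and 311 CPM in B16F0, and from 207 and 209 CPM to 322 and 327 CPM in B16F10. This was the smallest rise among the 10 genes in each line, with log2 fold changes of 0.15 ± 0.03 (adjusted p = 1.53e-05), 0.27 ± 0.03 (adjusted p = 5.11e-10) and 0.64 ± 0.03 (adjusted p = 1.83e-18). The untreated levels of B16F10 and Melan-A differed by 0.03 ± 0.03 (95% interval -0.02 to 0.09, adjusted p = 0.283).

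Psph, phosphoserine phosphatase, releases free serine in the last step (ENSMUSG00000029446.14, chromosome 5, 129765558 to 129787449, minus strand). Melan-A had 38.8 and 40.2 CPM without treatment and 57.9 and 56.5 CPM with SX-682. B16F0 had 37.4 and 41.6 CPM and then 67.2 and 68.4 CPM. B16F10 began lower, at 22.7 and 20.1 CPM, and reached 60.4 and 61.7 CPM. The log2 fold changes were 0.53 ± 0.05 (adjusted p = 1.12e-10), 0.78 ± 0.05 (adjusted p = 4.7e-14) and 1.51 ± 0.05 (adjusted p = 4.33e-20). Psph shares 452 exonic bases, 10.4% of its exonic length, with Cct6a on the opposite strand, and whether counting used strand is not stated, so reads of the shared stretch cannot be assigned with certainty. Cct6a, a chaperonin subunit, changed by 0.03 ± 0.02 in Melan-A (adjusted p = 0.337), 0.01 ± 0.02 in B16F0 (adjusted p = 0.749) and -0.07 ± 0.02 in B16F10 (adjusted p = 0.0163). Its untreated means, 236 CPM in Melan-A, 438 CPM in B16F0 and 435 CPM in B16F10, were far above those of Psph. How much its reads add to the Psph levels and changes was not tested.

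Per length, the serine enzymes stood in different proportions in the 3 lines. Phgdh was at 20.5 ± 1.34 RPKM (SD, n = 2) in untreated Melan-A, below Psat1 at 47.8 ± 0.30 RPKM. In untreated B16F0 Phgdh was at 124 ± 1.05 RPKM against 60.9 ± 2.39 RPKM for Psat1, and in untreated B16F10 at 102 ± 0.40 against 48.9 ± 0.33 RPKM. Psph was the lowest of the 3 in every group, from 4.95 ± 0.43 RPKM in untreated B16F10 to 15.7 ± 0.20 RPKM in B16F0 with SX-682. SX-682 did not alter this order in any line.

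Shmt2 moves a carbon from serine to folate in mitochondria and yields glycine (ENSMUSG00000025403.5, chromosome 10, 127517123 to 127522444, minus strand). It rose from 173 and 175 CPM to 249 and 257 CPM in Melan-A, from 284 and 279 CPM to 407 and 417 CPM in B16F0, and from 220.2 and 221 CPM to 367 and 366 CPM in B16F10. The rises were the most alike among lines, at 0.54 ± 0.02, 0.55 ± 0.02 and 0.73 ± 0.02 on the log2 scale, with a highest adjusted p of 2.68e-17 (edgeR). The difference between B16F0 and Melan-A was 0.01 ± 0.03 (95% interval -0.06 to 0.08, adjusted p = 0.895). Shmt2 shares 32 exonic bases, 1.03% of its exonic length, with Ndufa4l2 on the opposite strand.

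Mthfd2, a mitochondrial methylenetetrahydrofolate dehydrogenase and cyclohydrolase, oxidizes the carbon unit taken from serine (ENSMUSG00000005667.8, chromosome 6, 83305691 to 83325908, minus strand). Melan-A had 225 and 222 CPM without treatment and 347 and 343 CPM with SX-682. B16F0 started at 226 and 222 CPM, and reached 504 and 499 CPM. B16F10 started lowest, at 159 and 165 CPM, and ended highest, at 574 and 595 CPM. The order of the lines was therefore turned over by treatment, and both differences of B16F10 from the other lines were called in each condition. The log2 fold changes were 0.63 ± 0.02 in Melan-A (adjusted p = 8.89e-19), 1.16 ± 0.02 in B16F0 (adjusted p = 2.86e-25) and 1.85 ± 0.03 in B16F10 (adjusted p = 4.61e-30).

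Aldh18a1, the bifunctional enzyme that opens proline synthesis from glutamate, lies on chromosome 19 from 40550257 to 40588463 (ENSMUSG00000025007.13, minus strand). It was at 147 CPM in both untreated Melan-A libraries and at 237 and 229 CPM with SX-682. B16F0 went from 158 and 157 CPM to 264 and 271 CPM, and B16F10 from 85.8 and 81.1 CPM to 235 and 233 CPM. The log2 fold changes were 0.67 ± 0.03, 0.76 ± 0.03 and 1.49 ± 0.03, with a highest adjusted p of 3.42e-18 (edgeR). The B16F10 level was 0.568 times that of Melan-A without treatment, and with SX-682 the log2 difference was 0.01 ± 0.03 (95% interval -0.05 to 0.06, adjusted p = 0.845).

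Pycr1, the mitochondrial reductase that completes proline, showed the largest rise of the 10 genes in Melan-A and in B16F10 (ENSMUSG00000025140.15, chromosome 11, 120635712 to 120643769, minus strand). Melan-A had 9.27 and 7.72 CPM without treatment and 25.7 and 24.4 CPM with SX-682. B16F0 had 12.6 and 11.8 CPM and then 39.8 and 40.1 CPM. B16F10 had 1.57 and 1.78 CPM, from 95 and 114 counts, and then 14.9 and 15.0 CPM. Even after this rise B16F10 remained below treated Melan-A, with a log2 difference of -0.74 ± 0.07 (adjusted p = 2.06e-10). The log2 fold changes were 1.56 ± 0.07 (2.95-fold, adjusted p = 7.52e-17), 1.71 ± 0.07 (3.26-fold, adjusted p = 3.97e-18) and 3.15 ± 0.11 (8.89-fold, adjusted p = 2.17e-20). Ranked from the highest log2 fold change in B16F10, Pycr1 stood at place 357 of 18338 genes, Cth at 595 and Asns at 659. Mthfd2 stood at 825, Gpt2 at 999, Psph at 1062, Aldh18a1 at 1080, Phgdh at 2564, Shmt2 at 2577 and Psat1 at 2971. In Melan-A the places ran from 443 for Pycr1 to 6678 for Psat1.

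Cth, cystathionine gamma-lyase, was the only gene of the 10 with a very low level in a line (ENSMUSG00000028179.12, chromosome 3, 157894248 to 157925077, minus strand). Melan-A had 15 and 32 counts without treatment and 37 and 16 counts with SX-682, and these groups overlapped. In B16F0 the counts were 387 and 295 without treatment and 1145 and 803 with SX-682, which is 5.17 and 4.39 CPM and then 17.4 and 16.7 CPM. In B16F10 they were 48 and 67 without treatment and 295 and 298 with SX-682, which is 0.794 and 1.05 CPM and then 4.86 and 5.10 CPM. The rise was 1.83 ± 0.15 in B16F0 (3.56-fold, adjusted p = 2.33e-11) and 2.43 ± 0.21 in B16F10 (5.38-fold, adjusted p = 2.35e-11) on the log2 scale. The log2 difference in Melan-A was 0.45 ± 0.37 (95% interval -0.30 to 1.199, adjusted p = 0.336). It was -0.30 without the first SX-682 replicate of Melan-A and 0.97 without the second (adjusted p = 0.669 and 0.033), and 1.06 without the second untreated replicate, so no direction is given for Cth in this line. Untreated B16F0 exceeded untreated Melan-A 17.9-fold (log2 difference 4.16 ± 0.24, adjusted p = 6.92e-16), and the log2 difference was 4.77 without the second untreated Melan-A replicate and 3.75 without the first.

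Gpt2, mitochondrial alanine aminotransferase, is the only one of the 10 genes on a plus strand (ENSMUSG00000031700.11, chromosome 8, 85492576 to 85527560). It rose from 48.9 and 48.6 CPM to 91.2 and 92.2 CPM in Melan-A, from 48.2 and 48.5 CPM to 103 and 102 CPM in B16F0, and from 28.8 and 27.5 CPM to 82.6 and 85.4 CPM in B16F10. The log2 fold changes were 0.91 ± 0.04, 1.09 ± 0.04 and 1.58 ± 0.04, with a highest adjusted p of 5.55e-19 (edgeR). Untreated Melan-A and B16F0 differed by -0.01 ± 0.04 (95% interval -0.09 to 0.06, adjusted p = 0.761).

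**Figure D2:**
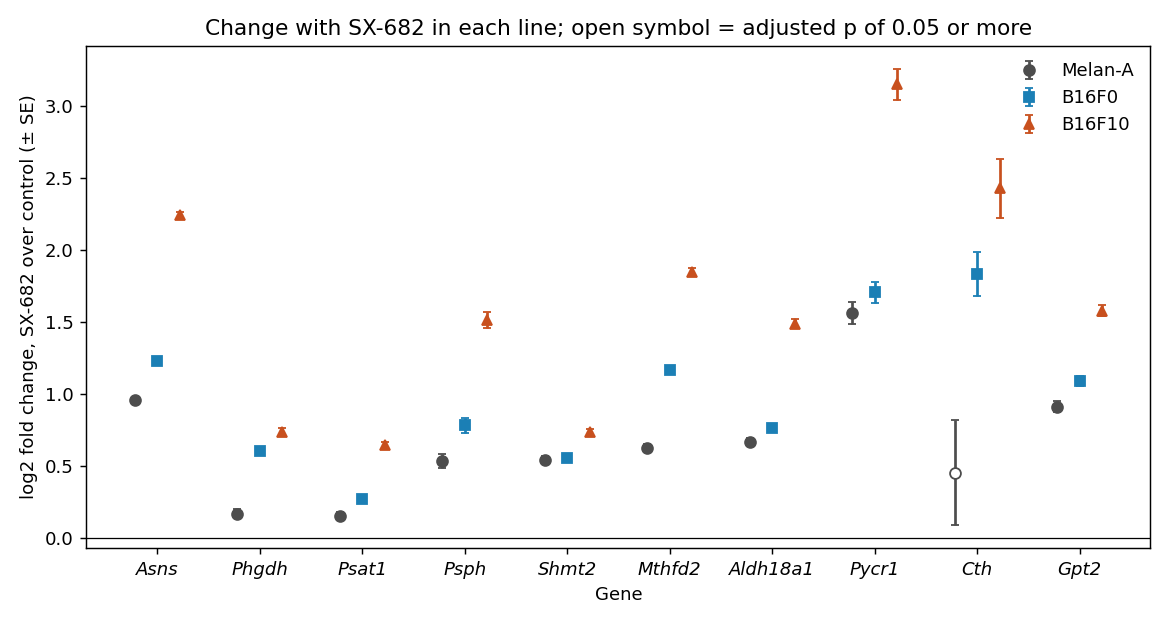
Log2 fold change of SX-682 over control for each of the 10 genes in each line, with bars of ± 1 SE from edgeR, filled symbols for an adjusted p under 0.05 and an open symbol for Cth in Melan-A. In each gene the circle of Melan-A is lowest and the triangle of B16F10 highest, from 0.15 for Psat1 in Melan-A to 3.15 for Pycr1 in B16F10.

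The size of the change was ordered Melan-A, B16F0, B16F10 in all 10 genes, an order held by 18.5% of all genes tested. Tested directly, the change in B16F10 was larger than that in Melan-A for all 10 genes, where 17.8% of all genes had a higher and 16% a lower value in this comparison. The change in B16F10 was larger than that in B16F0 for 9 genes, with 15.3% of all genes higher and 14.9% lower, and the exception was Cth at 0.60 ± 0.26 (95% interval 0.06 to 1.14, adjusted p = 0.0915, and 0.0223 in a fit of these lines alone). The change in B16F0 was larger than that in Melan-A for 7 genes, with 17.7% of all genes higher and 16.6% lower. Shmt2, Aldh18a1 at 0.10 ± 0.04 (adjusted p = 0.0573, and 0.0299 in DESeq2) and Pycr1 at 0.15 ± 0.10 (adjusted p = 0.316) were the 3 that did not pass. These comparisons share the libraries of a line and are not independent of each other. The largest excess of B16F10 over Melan-A was that of Cth, 1.98 ± 0.43 on the log2 scale (adjusted p = 5.19e-04), followed by Pycr1 at 1.59 ± 0.14 and Asns at 1.28 ± 0.03. The Cth differences from Melan-A lost their call when the second untreated Melan-A replicate was left out, at 0.77 for B16F0 (adjusted p = 0.316) and 1.37 for B16F10 (adjusted p = 0.0664), and the B16F0 difference also lost it without the second SX-682 replicate of Melan-A, at 0.86 (adjusted p = 0.102). Without the first SX-682 replicate of Melan-A these Cth differences were 2.13 and 2.73. The difference between B16F0 and Melan-A was 0.12 ± 0.04 for Psat1, and it was 0.09 without the second SX-682 replicate of Melan-A (adjusted p = 0.106) and 0.07 without the second untreated B16F0 replicate (adjusted p = 0.175). That of Psph was 0.25 ± 0.07, and it was 0.16 without the first untreated B16F0 replicate (adjusted p = 0.112).

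Without treatment, B16F10 was below B16F0 in all 10 genes. Among all genes 31.2% were lower and 30.8% higher in B16F10 than in B16F0. The untreated log2 differences between the B16 lines ran from -2.86 ± 0.11 for Pycr1 and -2.37 ± 0.20 for Cth to -0.29 ± 0.03 for Phgdh, with a median of -0.83. Against untreated Melan-A, B16F10 was lower in 6 genes, Asns, Psph, Mthfd2, Aldh18a1, Pycr1 and Gpt2, and higher in 3, Phgdh, Shmt2 and Cth, where 40.8% of all genes were lower and 33.4% higher. B16F0 exceeded untreated Melan-A in 6 genes, Phgdh, Psat1, Shmt2, Aldh18a1, Pycr1 and Cth, and was below it in Asns, at -0.38 ± 0.02 (adjusted p = 2.32e-15), where 35.3% of all genes were higher and 40.6% lower. Psph, Mthfd2 and Gpt2 did not pass the test between untreated B16F0 and Melan-A, with 95% intervals of the log2 difference of -0.10 to 0.10 for Psph and -0.05 to 0.05 for Mthfd2.

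In the SX-682 libraries the lines stood otherwise. B16F10 was below B16F0 in 7 of the 10 genes and above it in Mthfd2, at 0.22 ± 0.02 (adjusted p = 3.17e-09), where 31.2% of all genes were lower and 31.3% higher. Psat1 and Asns did not pass in that comparison. B16F0 exceeded Melan-A in 9 genes and was below it in Asns, at -0.11 ± 0.02 (adjusted p = 7.88e-05), where 35.2% of all genes were higher and 40.1% lower. B16F10 exceeded Melan-A in 5 genes, Phgdh, Psat1, Shmt2, Mthfd2 and Cth, and was below it in Asns, Pycr1 and Gpt2, where 33.6% of all genes were higher and 40.3% lower. The 2 that did not pass were Psph at 0.09 ± 0.05 (adjusted p = 0.0788) and Aldh18a1.

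Most isozymes and partner enzymes fell or did not pass the test, and none rose in all 3 lines. Of all genes tested, 23.4% rose in Melan-A, 25.1% in B16F0, 25.5% in B16F10 and 11.3% in all 3. With so few genes, the lack of rises cannot be read as a contrast with all genes. Shmt1, the cytosolic counterpart of Shmt2, fell on the log2 scale by 0.61 ± 0.06 in B16F0 (adjusted p = 4.97e-10) and by 0.90 ± 0.06 in B16F10 (adjusted p = 7.5e-14) and differed by 0.06 ± 0.05 in Melan-A (adjusted p = 0.393). Pycr3, the cytosolic relative of Pycr1, fell by 0.13 ± 0.05 in B16F0 (adjusted p = 0.0288) and by 0.33 ± 0.05 in B16F10 (adjusted p = 2.26e-06) and stood at -0.09 ± 0.05 in Melan-A (adjusted p = 0.118). Mthfd2l, a mitochondrial enzyme with the activity of Mthfd2, fell by 0.36 ± 0.09 in Melan-A (adjusted p = 0.00174) and did not pass in either B16 line. Gpt, the cytosolic alanine aminotransferase, was called lower by 1.07 ± 0.29 in Melan-A (adjusted p = 0.00285), with log2 differences of -0.25 ± 0.19 in B16F0 and 0.01 ± 0.20 in B16F10 that did not pass. In untreated Melan-A, Gpt2 made up 8.67 of the pair's 9.38 RPKM in replicate 1 and 8.616 of 8.874 in replicate 2. With SX-682 it made up 16.1675 of 16.439 and 16.347 of 16.533 RPKM. Gpt was thus low there, its second control was not above the first treated library, and the difference leaned on the first control. Mthfd1, the cytosolic folate enzyme, rose by 0.09 ± 0.04 in B16F0 and fell by 0.21 ± 0.04 in B16F10, and Mthfd1l, which releases formate from mitochondria, rose by 0.46 ± 0.03 in Melan-A and 0.27 ± 0.03 in B16F0 and stood at -0.03 ± 0.03 in B16F10 (adjusted p = 0.33). The difference between a member and its isozyme was not tested.

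**Figure D3:**
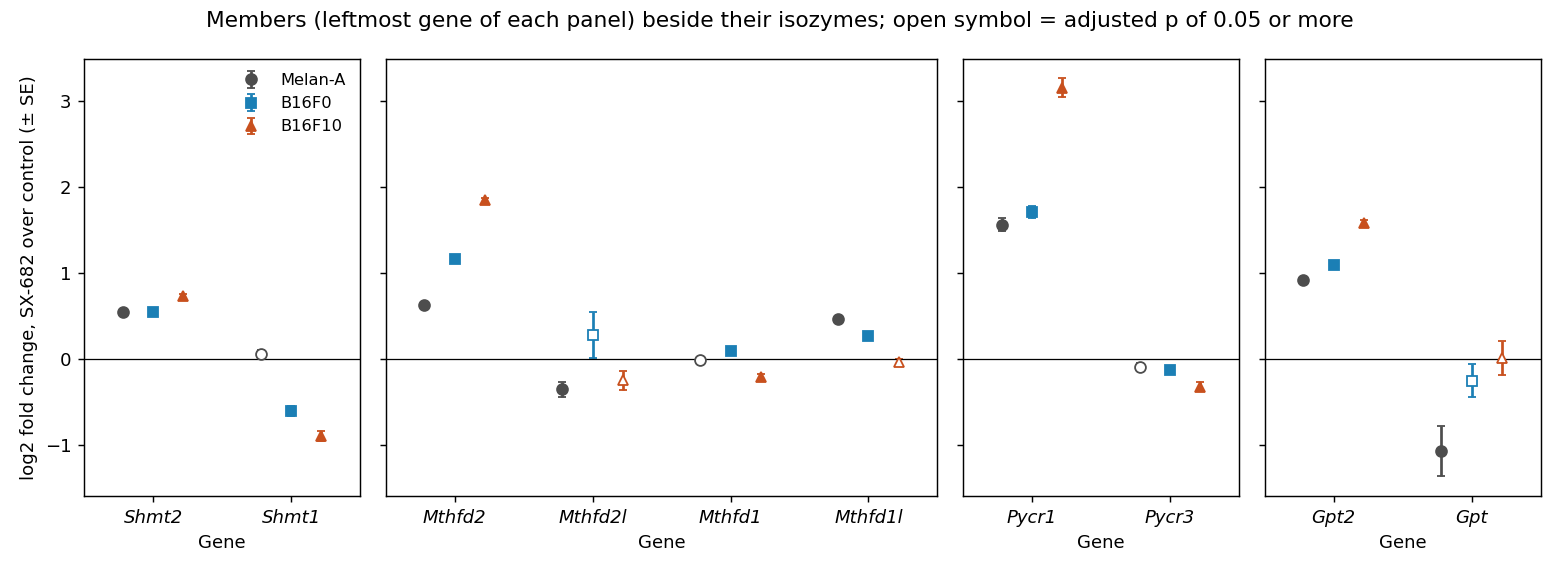
Log2 fold change of SX-682 over control, with bars of ± 1 SE, for Shmt2, Mthfd2, Pycr1 and Gpt2 at the left of each panel and for their isozymes or partner enzymes beside them, with filled symbols for an adjusted p under 0.05. All 3 lines lie above 0 for the leftmost genes, while Pycr3 runs from -0.09 in Melan-A to -0.33 in B16F10 and Shmt1 from 0.06 to -0.90.

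Per length, the share of a member in its isozyme pair had a higher mean with SX-682 than without it in each line. Shmt2 was already the main transcript of its pair, with 84.3 ± 0.0072% (SD, n = 2) of Melan-A, 93.3 ± 0.36% of B16F0 and 90.4 ± 0.24% of B16F10 RPKM without treatment and 88.2 ± 0.39%, 96.9 ± 0.05% and 96.7 ± 0.11% with SX-682. Mthfd2 made up at least 95.5% of Mthfd2 and Mthfd2l in every library. Gpt2 took 75.9 ± 0.81% of the alanine aminotransferase RPKM in untreated B16F0 and 88.9 ± 0.14% with SX-682, 73.7 ± 0.33% and 89.2 ± 0.41% in B16F10, and 94.8 ± 3.29% and 98.6 ± 0.37% in Melan-A. No test was run on these shares.

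**Figure D4:**
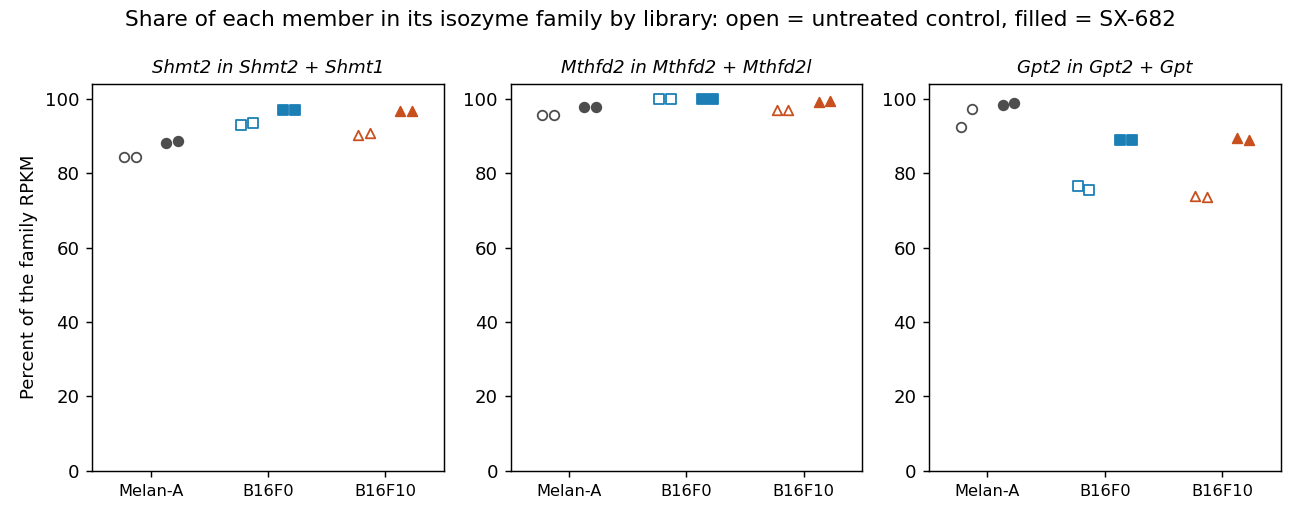
Share of Shmt2, Mthfd2 and Gpt2 in the summed RPKM of their isozyme pair in each library, in percent from 0, with open symbols for untreated controls and filled symbols for SX-682. The mean Gpt2 share is 75.9% and 73.7% in the untreated B16 lines and 88.9% and 89.2% in the treated ones, and the Mthfd2 share is at least 95.5% in every library.

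Among 41 further genes of the same pathways, 40 were tested, since Gldc, a subunit of the glycine cleavage system, was too low. Of these, 5 were raised and 7 lowered in all 3 lines, where 11.3% of all genes tested were raised and 11.7% lowered. In the serine and glycine branch none of 7 was raised and 1 lowered in all 3 lines, namely Gcsh, the lipoyl carrier of glycine cleavage, at -0.42 ± 0.05, -0.32 ± 0.05 and -0.57 ± 0.05 in Melan-A, B16F0 and B16F10. In the folate branch 2 of 12 were raised, Aldh1l1 and Aldh1l2, and 3 lowered, Tyms, Slc25a32 and Mtfmt. Aldh1l2, the mitochondrial formyltetrahydrofolate dehydrogenase, rose by 0.80 ± 0.03, 1.44 ± 0.03 and 1.23 ± 0.03, with a highest adjusted p of 2.82e-20 (edgeR). Tyms, thymidylate synthase, which uses folate carbon for DNA precursors, fell by 0.52 ± 0.04, 0.90 ± 0.04 and 0.90 ± 0.04.

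In the asparagine and aspartate branch 2 of 6 were raised in all 3 lines, Asrgl1 and Ass1, and 1, Got2, lowered. Asrgl1, which hydrolyzes asparagine, rose by 0.37 ± 0.05, 0.51 ± 0.05 and 0.74 ± 0.05 in Melan-A, B16F0 and B16F10, and Ass1, argininosuccinate synthase, by 0.55 ± 0.03, 0.44 ± 0.03 and 0.28 ± 0.03. In the proline and ornithine branch none of 5 was raised and 1, Oat, the aminotransferase between ornithine and the proline precursor, was lowered, by 0.14 ± 0.03, 0.22 ± 0.03 and 0.26 ± 0.03. In the cysteine branch 1 of 6 was raised, Mpst, a sulfurtransferase, by 0.26 ± 0.05, 0.22 ± 0.05 and 0.66 ± 0.05, and none lowered. Gclm, the modifier subunit of glutathione synthesis, passed in all 3 lines with different signs, at -0.29 ± 0.04 in Melan-A and at 0.87 ± 0.04 and 0.89 ± 0.04 in the B16 lines. Cbs, which acts before Cth, had group means of at most 0.303 RPKM. In the alanine and glutamate branch none of 4 was raised and 1 was lowered, Glul, glutamine synthetase, by 0.46 ± 0.03, 0.23 ± 0.03 and 0.40 ± 0.03.

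Atf4 itself rose in each line, with a log2 fold change of 0.73 ± 0.02 for Melan-A, 1.02 ± 0.02 for B16F0 and 1.45 ± 0.02 for B16F10, with a highest adjusted p of 8.11e-21 (edgeR). Its level went from 161 ± 5.14 to 267 ± 2.66 RPKM (SD, n = 2) in Melan-A, from 96.2 ± 1.99 to 195 ± 0.80 RPKM in B16F0 and from 95.3 ± 0.0057 to 260.0 ± 0.79 RPKM in B16F10. The protein and its activity were not measured in these libraries.

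Across the 12 libraries the 10 genes did not all follow the same profile. Pearson's r of a gene's log2 CPM with the mean of the other 9 was between 0.79 and 0.93 for Asns, Psat1, Psph, Shmt2, Mthfd2, Aldh18a1, Pycr1 and Gpt2, 0.65 for Cth and 0.39 for Phgdh. The genes with the profile most like the mean of the 10, among 10948 genes with a mean above 1 on the log2 CPM scale, were Nbeal1 (r = 0.993), Ppp6r2 (0.992), Aldh6a1 (0.990), Dennd4a (0.987) and Eif4b (0.987). These correlations describe 12 libraries that share lines and treatments and carry no test. Nbeal1 had SX-682 log2 fold changes of 0.44, 0.71 and 0.98 in Melan-A, B16F0 and B16F10, and Aldh6a1, a mitochondrial dehydrogenase of valine breakdown, of 0.27, 0.51 and 0.76.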

How the data were processed

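The authors sequenced total RNA from cultures of 3 mouse lines and deposited raw counts, the number of reads on each gene in each of 12 libraries, not normalized, with gene identifiers, lengths and GRCm38 coordinates. The submitters' processing notes name cutadapt, STAR, DESeq2 and build mm10, without versions. The counting program, its use of strand and its treatment of reads that map to several places are not given in the sources used here, which can affect genes with overlapping neighbours or pseudogenes. Every column was matched to a library by name, and groups and replicate numbers came from the sample labels. The members and gene lists were chosen with earlier results of these data known.

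Counts were analyzed in R 4.3.3 with edgeR 4.0.16. Its quasi-likelihood F-test was fitted to all 12 libraries at once, unblocked. Libraries were scaled by TMM, filterByExpr kept 18338 of 34513 genes, the prior count was 0.125, and p-values were adjusted by Benjamini-Hochberg over all genes and called under 0.05. The F statistic gave the standard errors, with 6 residual and a median of 21.9 prior degrees of freedom, and 95% intervals from both. The fit was also run on simulated counts with the same spread for every gene, which does not vouch for the p-values of these data. Contrasts compared SX-682 with control in each line, untreated lines with each other, SX-682-treated lines with each other (added after the values were seen), and the changes of 2 lines.

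Totals of 48876982 to 85322092 counts put a floor of 3 counts at 0.0330 to 0.0623 CPM, which covers counting error only. Replicates differed by more than counting noise, with a chi-square per gene of 2.82 to 4.97, and each library was kept as a sample. The text names all 10 members, their isozymes or partners, Atf4, and in each of 6 branches up to 2 further genes with the smallest worst adjusted p among those called in all 3 lines. Branch lists are descriptions, with no set test. Some genes of these branches are not reported here and are not in the counts. Promoter windows were those of RefSeq for GRCm38.p6, read for 9 members. Near copies were found with BLAST+ 2.17.0 against GENCODE M21 transcripts, at 90% identity or more over at least 100 bases and 20% of a transcript. GENCODE M21 had the coordinates and exonic length of the deposited table for all 10 members.

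Alternatives were DESeq2 1.42.0, scaling by RLE, all genes without a filter, genes with 10 or more counts in each library, a prior count of 2, a separate fit for the lines compared, the replicate number as a block, a log2 fold change of at least 0.5, each library left out in turn and, added after the values were seen, the counts without Cth. Protein sequences were not used here.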

Additional observations from a re-analysis of the deposited data

Results flagged for a closer look

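The change with SX-682 differed between lines for 26 of 30 comparisons of a gene between 2 lines, by the test of the difference itself (edgeR's quasi-likelihood test, Benjamini-Hochberg adjusted), and each was larger in the line named first. These values share libraries and are not independent. By the same test, the change in B16F10 was above that in Melan-A for 17.8% of all genes and below it for 16%. Against B16F0, the change in B16F10 was above for 15.3% of all genes and below for 14.9%. The change in B16F0 was above that in Melan-A for 17.7% of all genes and below it for 16.6%. No explanation was tested.

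Between B16F10 and Melan-A the log2 fold change was larger in B16F10 by 1.28 for Asns, 0.57 for Phgdh, 0.49 for Psat1, 0.98 for Psph, 0.19 for Shmt2, 1.22 for Mthfd2, 0.82 for Aldh18a1, 1.59 for Pycr1, 1.98 for Cth and 0.67 for Gpt2. Between B16F10 and B16F0 it was larger in B16F10 by 1.01 for Asns, 0.13 for Phgdh, 0.37 for Psat1, 0.73 for Psph, 0.18 for Shmt2, 0.68 for Mthfd2, 0.73 for Aldh18a1, 1.44 for Pycr1 and 0.49 for Gpt2. Between B16F0 and Melan-A it was larger in B16F0 by 0.27 for Asns, 0.43 for Phgdh, 0.12 for Psat1, 0.25 for Psph, 0.54 for Mthfd2, 1.38 for Cth and 0.18 for Gpt2. As given above, both Cth differences from Melan-A, and those of Psat1 and Psph between B16F0 and Melan-A, lost their call without single libraries.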

How the results depend on the processing

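Of 1440 recomputed values of a gene in a comparison, 1401 kept their direction and side of the threshold, 8 lost and 6 gained a call, and 25 changed sign, all of them values that had not passed the test. A limit on size moved counts most. The share of all genes within such a limit was not computed, so the counts under it describe these genes only. With a log2 fold change of at least 0.5 required, the genes raised by SX-682 numbered 7 (Melan-A), 9 (B16F0) and 10 (B16F10), untreated B16F0 was below Melan-A in 0 genes and untreated B16F10 below B16F0 in 6, and the change was larger in B16F0 than in Melan-A for 2 genes and larger in B16F10 than in B16F0 for 5. With SX-682 and that limit, B16F0 was above Melan-A in 5 and below in 0, B16F10 was below Melan-A in 1, and B16F10 was above B16F0 in 0 and below it in 2. No other setting, DESeq2 included, moved a count by over 1.5 times. Besides the calls lost without single libraries given above for Cth, Psat1 and Psph, Psph with SX-682 between the B16 lines lost its call without the first treated B16F10 replicate (adjusted p = 0.064, edgeR), Aldh18a1 lost its untreated difference between B16F0 and Melan-A with at least 10 counts (adjusted p = 0.0518), and Psph with SX-682 between B16F10 and Melan-A gained a call in a separate fit (adjusted p = 0.0188). Leaving out each library gave 9 to 10 genes raised in Melan-A, 5 to 7 with a larger change in B16F0 than in Melan-A, 9 to 10 with a larger change in B16F10 than in Melan-A, and 6 to 7 lower in B16F10 than in B16F0 with SX-682. Cth was the only gene not called in Melan-A, so leaving it out had to give 9 of 9 genes raised in each line. That count is no further check.

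The sign changes were these, with the range over single libraries left out at the end of each. Untreated B16F0 minus Melan-A for Mthfd2 was -0.0301 under RLE scaling, -0.0303 in DESeq2, -0.0385 with at least 10 counts in every library, -0.0061 in a separate fit and -0.0080 to 0.0207, and for Psph it was 0.0109 without a filter and -0.0734 to 0.0770. Untreated B16F10 minus Melan-A for Psat1 was -0.0332 with at least 10 counts and 0.0325 to 0.0437. The change in B16F0 minus that in Melan-A for Shmt2 was -0.0044 without a filter and -0.0225 to 0.0235. With SX-682, B16F10 minus Melan-A for Aldh18a1 was -0.0380 under RLE scaling, -0.0398 in DESeq2, -0.0725 with at least 10 counts (adjusted p = 0.0171, edgeR) and -0.0215 to 0.0194. For Asns with SX-682, B16F10 minus B16F0 was -0.0143, -0.0130 and -0.0375 in these settings, -0.0116 in a separate fit and 0.0054 to 0.0140. The Cth change in Melan-A was -0.30 to 1.06. The cause was not tested. RLE scaling shifted the median of all genes by less than 0.1 in every comparison.

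Replicate numbers are shared by the groups, but the deviations of same-numbered libraries correlated at 0.0031 for Melan-A, -0.0091 for B16F0 and -0.0127 for B16F10. Same-numbered libraries thus showed no shared deviation over all genes, which does not tell whether they were handled together. With the replicate block the genes raised were 9, 10 and 10 in the 3 lines, and no count in any of the 12 comparisons changed. Cth was low in Melan-A, with 15 to 37 counts per library, although the totals of that line were not low, and 2 libraries per group limit every comparison.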
